A study of Mus musculus with 5 samples.

Results

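DEAD box and DEAH box proteins are RNA helicases named for the amino acids of a motif that binds and hydrolyses ATP. The genes described here are those on a mouse expression array whose symbol starts with Ddx or Dhx and a digit, without the antiviral RNA sensors Ddx58 and Dhx58. There were 30 such genes among 8251 named genes, 23 of the Ddx and 7 of the Dhx kind, covered by 45 of 12422 probe sets. Where a gene had several probe sets, the one with the highest mean over the 5 arrays stood for it. Of the 30 genes, 28 lay above the filter on low signal and were tested, while Ddx4, a germline helicase (signals of 3.06 to 10.7), and Dhx32 (5.60 to 7.29) lay below it. Each gene was placed in 1 class by its main role, from general knowledge and not from these data: 12 nucleolar, 8 in splicing and nuclear RNA processing, 5 in mRNA export, translation and decay, 1 mitochondrial and 4 in none of these. Some genes have more than 1 role.

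RNA came from CD44lo CD8+ T lymphocytes of OT-1 TCR transgenic mice on the C57BL/6 strain, aged 6 to 8 weeks, whose T cells carry a receptor for an ovalbumin peptide. Lymph node cells were enriched by negative selection and stimulated in culture on latex microspheres that carried the peptide bound to H-2Kb together with B7-1, the ligand of CD28, and all cultures received human rIL-2. There were 2 arrays at 48 h with antigen and B7-1 alone, 2 at 48 h with murine IL-21 added and 1 at 72 h with IL-21. The titles call the arrays biological replicates without naming the mice or cultures behind them. The p-values thus rest only on how far the 48 h replicates spread, which may be technical, and on variance borrowed from other probe sets. The lone 72 h array adds no spread of its own. Whether mice were pooled is not stated in the labels used here.

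Helicases use ATP to unwind short RNA duplexes or to strip proteins from RNA. Nucleolar members act on the ribosomal RNA precursor and its small nucleolar RNAs while both ribosomal subunits are assembled, a process that expands when a T cell grows and divides after activation. DEAH box members drive the rearrangements of the spliceosome, and other DEAD box members load mRNA for export, unwind leader sequences for translation or hold mRNA in a repressed state.

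Deposited signals had a trimmed mean of 106 on each IL-21 array at 48 h and of 65.8 to 75.9 on the other 3, so quantile-normalised signals were compared. Of 9 markers of CD8 T cells, 8 were on the array and above the filter, with Cd8a between 411 and 774 and Cd3e between 1119 and 1684. Their summed signal was 5818 to 5927 without IL-21 at 48 h, 5963 to 6541 with it and 8655 at 72 h. The markers did not move together from 48 to 72 h with IL-21. By log2 difference, Cd3g (1.77), Cd3d (1.40), Thy1 (0.57), Cd3e (0.53) and Cd8b1 (0.13) were higher, while Cd8a (-0.51), Cd5 (-0.52) and Cd2 (-0.18) were lower. Cd4 lay between 9.51 and 33.3, and the sum of 4 B cell markers between 84.9 and 109. The sum of 6 myeloid and dendritic cell markers lay between 120 and 175. Their part in the results was not tested. Apart from these sums, signals were set against each other only within a probe set, since probe sets differ in how well they bind.

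The first comparison asked how helicase transcripts in cells cultured with IL-21 differed between 48 and 72 h. Of the 28 helicases tested, 7 fell and 0 rose at an adjusted p under 0.05 in limma, and 21 were not called. Those that fell were the nucleolar Ddx51, Ddx18, Ddx21 and Ddx24, the splicing and export factor Ddx39b, the translation factor Ddx3x and Ddx1, a subunit of the tRNA ligase complex. Among all 7453 probe sets tested, 11.0% were called, 7.08% lower and 3.96% higher, and among 5610 genes with 1 probe set each the shares were 11.7%, 7.54% and 4.19%. The 7 of 28 amount to 25% of the helicases. No array at 72 h without IL-21 was analysed here, so time with IL-21 and time alone cannot be told apart. In bulk RNA, fewer cells of a type and less RNA per cell cannot be told apart either. The comparison set 1 array against 2, so nothing replicates the 72 h signals and that array was assumed to vary as the 48 h arrays do.

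**Figure D1:**
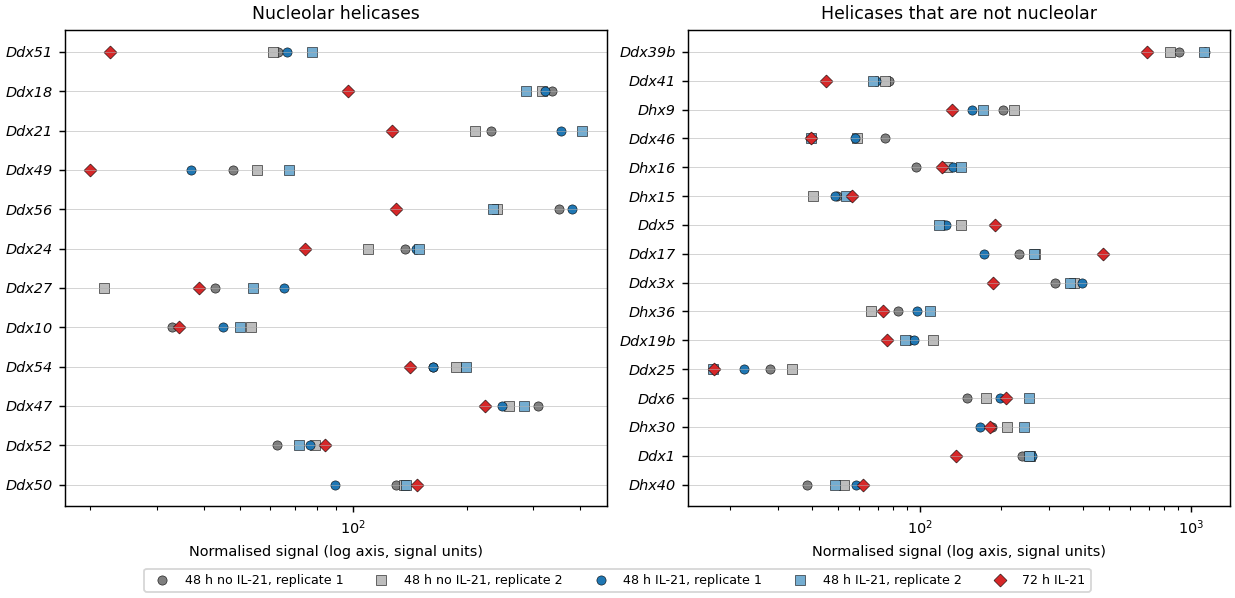
Normalised signal (log axis, signal units) of each tested helicase on the 5 arrays, nucleolar helicases on the left and the other helicases on the right, 1 point per array. The 72 h array (diamonds) lies left of all 4 arrays at 48 h for 8 of 12 nucleolar and 7 of 16 other helicases, and right of them for 2 and 4. Among all 5610 genes tested, the 72 h array was below all 4 for 34.7% and above them for 30.9%.

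Among the nucleolar helicases, Ddx18, which acts in assembly of the large ribosomal subunit, had signals of 337 and 317 without IL-21 at 48 h, 322 and 288 with IL-21 at 48 h and 96.6 at 72 h. The 48 h arrays lay close together and the 72 h array lay far below each of them. Ddx18 fell 3.16-fold between 48 and 72 h with IL-21 (log2 difference -1.66, SE 0.18, adjusted p = 0.0101 in limma). A second probe set for Ddx18 gave -1.68 (SE 0.21, adjusted p = 0.0122 in limma).

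Ddx21, a helicase that senses RNA polymerase I and II transcription and helps process ribosomal RNA, had signals of 232 and 211 without IL-21, 356 and 406 with IL-21 at 48 h and 126 at 72 h. The 48 h arrays with IL-21 were the highest and the 72 h array the lowest, without overlap of the 3 groups. Ddx21 fell by 1.59 on the log2 scale (SE 0.19, 3.00-fold, adjusted p = 0.0118 in limma). Ddx50, its paralogue, lies next to Ddx21 in the GRCm38.p6 gene table with 0 protein-coding genes between them. It had signals of 130 and 137, then 89.4 and 138, and 148 at 72 h. The 72 h array was slightly above the other 4, and the difference of 0.41 (SE 0.30) was not called. The difference between the paralogues was not tested. A second tested probe set of Ddx50 gave 0.21, and 2 others lay below the filter.

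Ddx51, the mammalian relative of a yeast helicase of large subunit assembly, had only 1 probe set. That probe set is of a kind marked as having fewer probes than the array's design asked. The signals of Ddx51 were 63.1 and 61.0, then 66.6 and 77.5, and 22.5 at 72 h. It fell by 1.67 (SE 0.26, 3.19-fold, adjusted p = 0.0183 in limma). Ddx24, a nucleolar helicase, had signals of 137 and 109, then 147 and 150, and 74.3 at 72 h. It fell by 1.00 (SE 0.23, 1.99-fold, adjusted p = 0.0484 in limma), just inside the threshold. The 72 h array was below all 4 others for both genes. A second Ddx24 probe set, with signals of 15.6 to 47.5, gave -0.19 (SE 0.48). It is of a kind marked as breaking the array's design rules. With the mean of both probe sets the gene was no longer called (-0.59, adjusted p = 0.207 in limma).

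Ddx49 and Ddx56, the latter a factor of large subunit assembly, were lower at 72 h than on every 48 h array but were not called. Ddx49 had signals of 48.0 and 55.4, then 37.1 and 67.6, and 20.0 at 72 h (-1.33, SE 0.41, adjusted p = 0.0985 in limma). Ddx56 had 352 and 241, then 381 and 236, and 130 at 72 h (-1.21, SE 0.36, adjusted p = 0.0869 in limma). In both 48 h groups its first replicate was the higher one, and this spread set its error. With arrays centred on their medians Ddx56 passed (-1.48, adjusted p = 0.0258 in limma), which moved all probe sets to a median of -0.17. It also passed in the unscaled values and after scaling on the hybridisation controls, but not with trimmed mean scaling (-1.22, adjusted p = 0.0761).

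The remaining nucleolar helicases differed less. Ddx54 (-0.35) and Ddx47 (-0.24) had their lowest signal at 72 h, and Ddx27 (-0.61, SE 0.45) and Ddx10 (-0.46, SE 0.37) did not. Ddx52, a small subunit factor, had its highest signal at 72 h (84.3 against 62.6 to 79.2 at 48 h, 0.18, SE 0.26). A second probe set gave the same sign for Ddx27 (-0.90) and the opposite one for Ddx47 (0.32). None of these 5 genes passed the test. Across the nucleolar class 10 of 12 differences were below 0, as were 50.9% of all genes, and the 72 h array was below all 4 arrays at 48 h for 8 of 12, beside 34.7% of all genes. It was above them for 2 of 12, beside 30.9%.

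**Figure D2:**
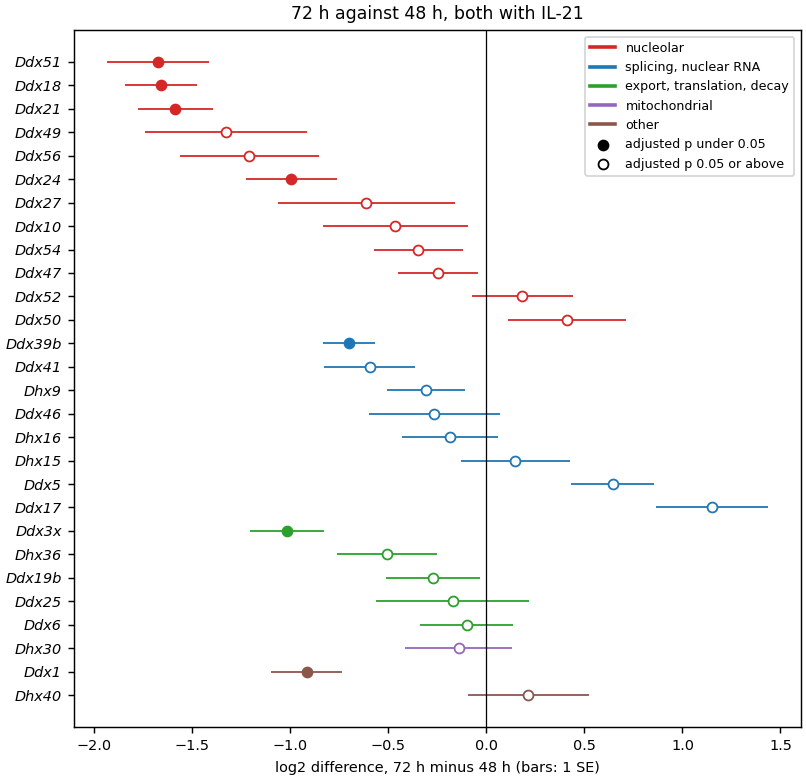
Log2 difference between 72 h and 48 h with IL-21 for the 28 tested helicases, coloured by role, with bars of 1 standard error; filled points passed an adjusted p under 0.05 in limma. The 7 filled points all lie below 0, 4 of them nucleolar, and the points farthest above 0 are the open points of Ddx17 (1.15) and Ddx5 (0.64).

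The promoters of the 7 genes that fell are shown because these transcripts were called together. The 120 bases before each gene's start are given from RefSeq on GRCm38.p6, 5′ to 3′ on the gene's strand. Capitals mark matches on either strand to the canonical E-box bound by MYC and MAX (CACGTG), a non-canonical E-box (CACGCG), the GC box (GGGCGG), the CCAAT box (CCAAT), the TATA box (TATAAA) and an ETS core (CCGGAAG).
Ddx18 (chr1:121567981-121568100, - strand): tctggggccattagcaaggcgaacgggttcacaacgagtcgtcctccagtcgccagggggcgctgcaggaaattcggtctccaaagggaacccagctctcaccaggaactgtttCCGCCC
Ddx21 (chr10:62602299-62602418, - strand): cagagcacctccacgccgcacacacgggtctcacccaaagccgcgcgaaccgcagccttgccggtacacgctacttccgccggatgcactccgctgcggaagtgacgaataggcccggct
Ddx51 (chr5:110653331-110653450, + strand): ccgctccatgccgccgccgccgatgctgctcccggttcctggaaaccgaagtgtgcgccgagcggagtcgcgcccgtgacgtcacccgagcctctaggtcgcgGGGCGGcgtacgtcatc
Ddx24 (chr12:103425848-103425967, - strand): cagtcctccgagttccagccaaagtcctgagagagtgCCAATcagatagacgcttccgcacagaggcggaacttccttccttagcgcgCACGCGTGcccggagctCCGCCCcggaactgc
Ddx39b (chr17:35241626-35241745, + strand): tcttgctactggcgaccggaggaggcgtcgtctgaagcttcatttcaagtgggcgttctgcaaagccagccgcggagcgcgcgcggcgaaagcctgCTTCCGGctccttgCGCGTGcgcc
Ddx3x (chrX:13280902-13281021, + strand): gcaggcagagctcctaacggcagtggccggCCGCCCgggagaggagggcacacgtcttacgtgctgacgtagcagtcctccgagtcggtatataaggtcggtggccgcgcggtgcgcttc
Ddx1 (chr12:13249175-13249294, - strand): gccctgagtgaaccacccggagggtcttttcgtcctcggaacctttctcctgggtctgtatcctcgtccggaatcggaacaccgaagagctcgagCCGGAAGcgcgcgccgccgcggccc
The stretch of Ddx21 held none of the 6 motifs, and that of Ddx24 held 4 matches, of which the pair of non-canonical E-boxes overlap on opposite strands. Ddx18, Ddx51 and Ddx3x each held 1 GC box, Ddx1 an ETS core, and Ddx39b an ETS core and a non-canonical E-box. In the longer window of 250 bases before to 50 after the first listed start, 27 of the 28 tested helicases had a sequence. The canonical E-box was in 0 of 12 nucleolar and 2 of 15 other helicases (Ddx25 and Dhx40), beside 7.24% of 27025 genes. The non-canonical E-box was in 5 of 12 and 4 of 15 (9.36% of all genes) and the ETS core in 6 and 7 (9.12%). The GC box was in 9 and 9 (35.9%), the CCAAT box in 9 and 6 (37.9%) and the TATA box, as TATAAA, in 0 and 0 (14.2%). Only the exact letters were searched, so related spellings, such as tatataag in the stretch of Ddx3x, were not counted. A match is a run of letters and not a measured binding site. GC content lay between 47.3% and 75% in these 27 windows, most of them above the median of 52.7% over all genes. The shares over all genes were not matched for GC content. They also include genes that were not tested on this array, while the helicases counted all lay above the signal filter.

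Among 8 helicases of splicing and nuclear RNA processing, 1 fell, 0 rose and 7 were not called. Ddx39b, an ATPase that works in spliceosome assembly and loads mRNA for export, had signals of 909 and 841, then 1130 and 1121, and 693 at 72 h. It fell by 0.70 (SE 0.13, 1.62-fold, adjusted p = 0.0287 in limma), and the 3 groups did not overlap.

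Ddx17 and Ddx5, paralogous coregulators that also act in splicing and microRNA processing, had the largest positive differences of the 28. Ddx17 had signals of 233 and 268, then 173 and 265, and 475 at 72 h (1.15, SE 0.29, adjusted p = 0.0557 in limma), just outside the threshold. Its second probe set, of a kind whose probes may bind related transcripts, passed with 1.51 (SE 0.32, adjusted p = 0.0366 in limma), and the mean of both passed as well (1.33, adjusted p = 0.0438 in limma). The chosen Ddx17 probe set gave 0.85 with median centring (adjusted p = 0.212 in limma) and 0.44 unscaled (adjusted p = 0.301), settings that moved all probe sets by medians of -0.17 and -0.58. Ddx5 had signals of 123 and 142, then 125 and 118, and 190 at 72 h (0.64, SE 0.21, adjusted p = 0.113 in limma). Its difference was 0.33 with median centring and -0.08 unscaled. Both genes had higher normalised signals at 72 h than on every array at 48 h.

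The others of this class had no call. Ddx41 (-0.60, SE 0.23) and Dhx9 (-0.31, SE 0.20), known as RNA helicase A, had their lowest signals at 72 h. The U2 particle factor Ddx46 (-0.27, SE 0.33) stood at 39.8 both at 72 h and on the second 48 h array with IL-21. The spliceosomal ATPases Dhx16 (-0.18, SE 0.24) and Dhx15 (0.15, SE 0.28) differed by less than 1 standard error.

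Of 5 helicases of export, translation and decay, 1 fell, 0 rose and 4 were not called. Ddx3x, which helps translate mRNAs with structured leaders, had signals of 316 and 371, then 399 and 360, and 187 at 72 h. It fell by 1.02 (SE 0.19, 2.02-fold, adjusted p = 0.0274 in limma), with the 72 h array well below the rest. A second probe set for Ddx3x, not of the family-sharing kind, fell by 1.35 (SE 0.20, adjusted p = 0.0176 in limma), and another lay below the filter. Dhx36, which unwinds G-quadruplexes (-0.51, SE 0.25), Ddx19b, a factor of export through the nuclear pore (-0.27, SE 0.24), and Ddx25 (-0.17, SE 0.39) were not called. Ddx6, the decapping activator that marks P-bodies, differed by -0.10 (SE 0.24), and its other probe sets gave 0.63 and -0.02.

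Ddx1 had signals of 239 and 256, then 260 and 254, and 136 at 72 h. The 4 arrays at 48 h spanned a narrow range and the 72 h array lay below it. Ddx1 fell by 0.92 (SE 0.18, 1.89-fold, adjusted p = 0.0307 in limma), but its second probe set, with signals of 29.6 to 39.1, gave -0.04 (SE 0.33), and the mean of both was not called (-0.48, adjusted p = 0.212 in limma). The mitochondrial helicase Dhx30, which takes part in mitochondrial ribosome assembly, differed by -0.14 (SE 0.27), and Dhx40 by 0.21 (SE 0.31). All 7 called genes were of the Ddx kind (7 of 22 tested, against 0 of 6 Dhx genes), beside 7.54% of all genes called lower. Medians were -0.53 for Ddx and -0.16 for Dhx genes, a difference that was not tested. All 12 nucleolar helicases are of the Ddx kind, so this split overlaps with the split by role.

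Set side by side, the 12 nucleolar helicases had a median log2 difference of -0.80 (4 called lower, 0 higher, range -1.67 to 0.41). The 16 others had a median of -0.23 (3 called lower, 0 higher, range -1.02 to 1.15), beside -0.01 for all 5610 genes. Taken array by array, the nucleolar median difference of the 72 h array from a 48 h array ran from -0.82 to -0.60. Between 48 h arrays, where the sign depends only on which array is subtracted, it reached 0.25 in size. For the other helicases the 72 h values ran from -0.29 to -0.23, and 48 h arrays differed by up to 0.19 in size. The gap between the class medians, -0.58, depended on the classes: it was -0.20 when Ddx1, Ddx5, Ddx17, Dhx9 and Dhx15, which have a nucleolar role beside another, were counted as nucleolar. No test over members was made, since they were chosen with results known.

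These calls rest on few arrays. Leaving out either 48 h array with IL-21 left 0 of 7453 probe sets called in limma (1702 and 1753 at an unadjusted p under 0.05), and so did the variance estimate without a trend (1839). All 7 genes stayed below 0 in each of their 16 alternative settings. They were picked as called lower, and the same 72 h array enters every setting, so that sign could hardly have changed. Their calls held less well, in 7 of the 16 settings for Ddx24, 9 for Ddx1 and Ddx39b, and 11 to 13 for the others. The split of all calls depended on scaling: 295 higher and 528 lower became 122 and 552 with median centring, 101 and 2027 unscaled, and 322 and 335 after scaling on hybridisation controls. Both class medians stayed below 0 and below that of all probe sets in these scalings.

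Genes that work with the helicases give the surroundings. Of 46 tested ribosome biogenesis factors that are not helicases, 34 were called lower, 0 higher and 12 not called, with a median of -1.31, beside 4 of 12 and -0.80 for the nucleolar helicases. Examples were the nucleolar GTPase Gnl3 (-2.82, SE 0.20), the ribosomal RNA methyltransferases Nop2 (-2.02) and Fbl (-1.42), the RNA polymerase I subunit Polr1a (-2.29) and Nhp2 of the pseudouridylation particles (-1.64), all called. Of 29 spliceosome proteins that are not helicases, 13 were called lower and 0 higher, with a median of -0.65, beside 1 of 8 and -0.23 for splicing helicases. They included Snrpb (-1.04), the splice site factor U2af2 (-1.08), Srsf2 (-0.94), Prpf31 (-1.65) and Eftud2 (-1.12). The Snrpb probe set is of the rule-breaking kind.

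Of 19 export and decay partners, 3 were called lower, Lsm7 (-0.87), Lsm2 (-1.10) and the export receptor Nxf1 (-1.08), 0 were called higher, and the median was -0.13. The export adaptor Alyref (-0.61) and Lsm3 (-0.78) were not called. Of 5 tested RNA helicases with other symbols 0 were called in limma (2 at an unadjusted p under 0.05). Eif4a1, the translation initiation helicase, differed by -0.44 (SE 0.20), with a probe set of the rule-breaking kind as its only one. Its paralogue Eif4a2 differed by -0.69 (SE 0.20) and the mitochondrial Supv3l1 by -0.79 (SE 0.26). Skiv2l differed by 0.59 (SE 0.24) and Mov10 by 0.54 (SE 0.45). Among 7 tested genes of the MYC network, Myc fell by 1.17 (SE 0.23) and its antagonist Mxd4 rose by 3.86 (SE 0.41) from a low signal of 13.8. Mxi1 (1.12), Mxd3 (1.30), Mnt (0.50), Max (-0.30) and Mlx (-0.41) were not called.

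**Figure D3:**
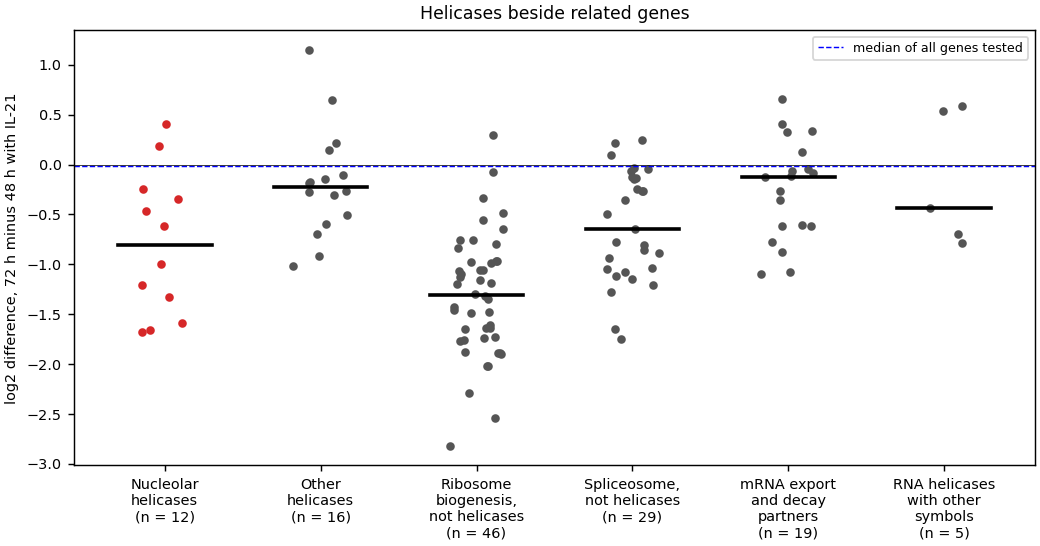
Log2 difference between 72 h and 48 h with IL-21 for each tested gene of 6 groups, 1 point per gene, with the median of each group as a black bar and that of all 5610 genes as a dashed line. The bars stand at -0.80 for nucleolar and -0.23 for other helicases, at -1.31 for ribosome biogenesis factors and at -0.65 for spliceosome proteins.

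The second comparison addressed the effect of IL-21 on cells stimulated for 48 h. None of the 28 helicases passed: 0 had an adjusted p under 0.05 in limma, as did 0 of 7453 probe sets (0% called), and 3 had an unadjusted p under 0.05, beside 4.40% of probe sets and 4.15% of genes. The arrays of the 2 groups did not overlap for 12 of 28 helicases, 8 higher and 4 lower with IL-21, beside 33.6% of all genes (15.3% higher and 18.3% lower). The median difference was 0.06 for nucleolar and 0.04 for other helicases, beside -0.01 for all probe sets. Scaling on hybridisation controls moved all probe sets to a median of -0.18, with the classes at -0.12 and -0.15, still 0.06 and 0.03 above it. The 2 comparisons share the 48 h arrays with IL-21.

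**Figure D4:**
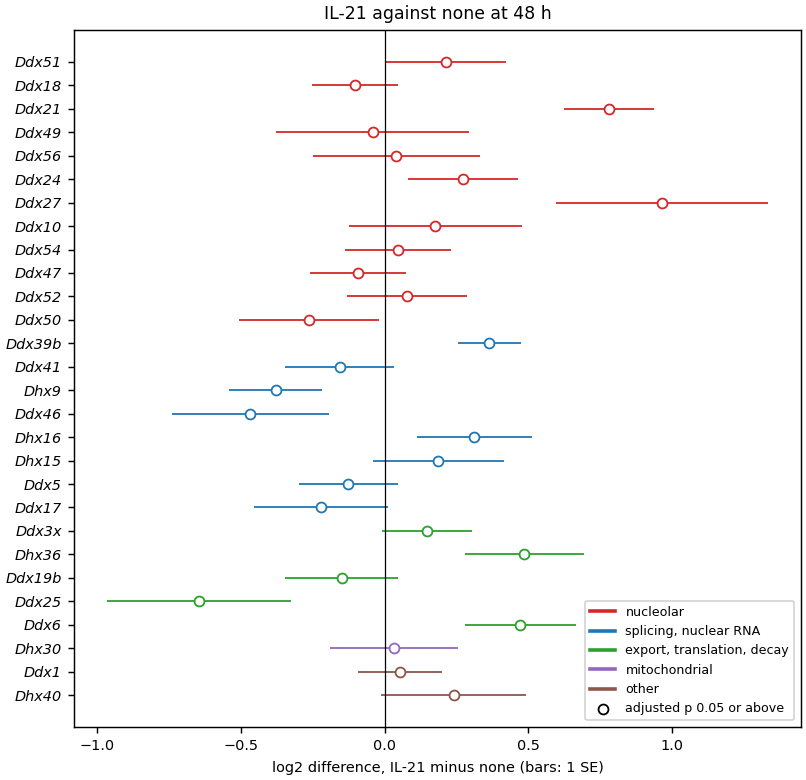
Log2 difference between IL-21 and none at 48 h for the 28 tested helicases, in the same order and colours as for the later comparison, with bars of 1 standard error. All points are open, since none passed; Ddx27 (0.96) and Ddx21 (0.78) lie farthest above 0 and Ddx25 (-0.64) farthest below.

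Among nucleolar helicases, Ddx21 had the smallest p of the 28. Its signals of 356 and 406 with IL-21 stood above 232 and 211 without it, a log2 difference of 0.78 (SE 0.16, unadjusted p = 0.00247, adjusted p = 0.876 in limma). Ddx27, a factor of large subunit assembly, had signals of 65.6 and 54.1 with IL-21 against 43.0 and 21.7 without (0.96, SE 0.37, unadjusted p = 0.0393 in limma). Its groups did not overlap, but both of its probe sets are of a kind marked as breaking the array's design rules. Ddx51 (0.21) and Ddx24 (0.27) also had groups that did not overlap. The other 8 overlapped, among them Ddx18 (-0.10), Ddx56 (0.04) and Ddx50 (-0.26). A second tested probe set gave the same sign for Ddx24 (0.96), Ddx27 (0.48) and Ddx18 (-0.09). It gave the opposite sign for Ddx47 (0.11 against -0.09) and Ddx50 (0.04).

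Outside the nucleolar class, Ddx39b had signals of 1130 and 1121 with IL-21 and 909 and 841 without (0.36, SE 0.11, unadjusted p = 0.0154, adjusted p = 0.966 in limma). Ddx6 had 198 and 254 with IL-21 and 149 and 175 without (0.47, SE 0.19), and its other probe sets gave 1.15 and 1.26, with arrays that did not overlap in any of the 3. The probe set at 1.26 had an unadjusted p of 8.34e-04 in limma, but is of the same rule-breaking kind as those of Ddx27. Dhx36 (0.49, SE 0.21) and Dhx16 (0.31, SE 0.20) were higher on both IL-21 arrays. Dhx9 (-0.38, SE 0.16), Ddx46 (-0.47, SE 0.27), Ddx41 (-0.16, SE 0.19) and Ddx25 (-0.64, SE 0.32) were lower on both. The remaining 8 had overlapping arrays and differences between -0.22 (Ddx17) and 0.24 (Dhx40). Among them Ddx3x differed by 0.15, while its second tested probe set gave -0.19 and was lower on both IL-21 arrays. Over all helicases, 7 of 10 other tested probe sets had the same sign as the chosen one.

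The related genes showed no call at 48 h either. Medians were -0.00 for ribosome biogenesis factors, 0.07 for spliceosome proteins, 0.01 for export and decay partners and -0.20 for the MYC network. By smallest p these lists were led by Brix1 (0.78), Sf3b1 (1.13), the exonuclease Xrn1 (1.54) and Max (0.28), and Myc differed by 0.12. The Brix1 probe set is of the rule-breaking kind. Xrn1 was dim, with signals of 5.24 and 8.50 without IL-21, 14.7 and 25.6 with it and 24.5 at 72 h, and passed the filter on mean signal through the IL-21 arrays. Among RNA helicases with other symbols Eif4a2 differed by 0.65 (SE 0.17). None passed in limma over all probe sets. With arrays left out in turn the nucleolar median lay between -0.01 and 0.22.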

How the data were processed

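Each of the 5 samples was hybridised to 1 array with 12488 probe sets. The authors deposited linear intensities from MAS5, per the submitters' processing notes; version, scaling target and detection calls were not used here. Array-wide brightness differs and is carried by each intensity.

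After removal of 66 control probe sets, intensities were quantile-normalised, an offset of 1.53 (the 10th percentile) was added and log2 was taken, which shrinks differences of dim probe sets. Probe sets above the 40th percentile of mean signal were kept (7453 of 12422). Names came from platform annotation updated through gene identifiers to GRCm38.p6 (10817 of 10833 matched). The fit (limma 3.58.1, R 4.3.3) held 3 group means for 5 arrays, leaving 2 residual degrees of freedom, with a variance trend. The variance borrowed from other probe sets counted for 4.02 further degrees of freedom. Tests in this fit were two-sided, with the Benjamini-Hochberg threshold of 0.05 applied across all probe sets. Tested on simulated data, it called most of the larger changes and few of the smallest. The simulated arrays were drawn independently from the fit's own variance estimate, without normalisation or filter. They thus cannot show how the fit handles brightness differences or deviations shared between real arrays. The number of arrays limits the precision.

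Every helicase is named, with up to 5 members of each other list by smallest p and all tested members of the MYC list. Mycn and Mxd1 of that list lay below the filter. Members and lists were chosen with earlier results of these data known. Alternatives covered the offset, scaling, filter, variance trend, replicate block, arrays left out, gene means and role classes. Quantile normalisation of log2 values was added after seeing the data.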

Additional observations from a re-analysis of the deposited data

How the results depend on the processing

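At 72 h, leaving out 1 array at a time gave 0 to 462 called probe sets (823 with all), 0 to 3 helicases (7), 0 to 3 nucleolar (4) and 0 other helicases called lower (3). The nucleolar median lay between -0.81 and -0.70, the other median between -0.28 and -0.22 and their gap between -0.58 and -0.45. At 48 h the medians lay between -0.011 and 0.22 for nucleolar helicases and between -0.031 and 0.082 for the others; both were lowest, and below 0, when IL-21-free replicate 1 was left out. Without a variance trend 0 probe sets, 0 helicases, 0 nucleolar and 0 others were called at 72 h.

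The unscaled values carry each array's brightness: all probe sets had medians of 0.57 at 48 h and -0.58 at 72 h, and the class medians lay only 0.06 and 0.04 above that of all at 48 h. There 696 probe sets, all higher, and 7 helicases were called at 48 h, with medians of 0.63 and 0.61, and 2128 probe sets and 16 helicases at 72 h, 8 nucleolar and 8 other called lower, with medians of -1.36 and -0.85 and a gap of -0.50. Median centring gave a nucleolar median of 0.10 at 48 h, and medians of -0.95 and -0.44 with a gap of -0.50 at 72 h. Trimmed mean scaling gave -0.70 and a gap of -0.51. Scaling on hybridisation controls gave -0.12 and -0.15 at 48 h, where all probe sets had a median of -0.18, and -0.67 and -0.16 with a gap of -0.51 and 1 other helicase called lower at 72 h. The nucleolar median and the gap at 72 h were -0.67 and -0.49 with an offset of 16, -0.73 and -0.46 with the filter at the 60th percentile, -0.67 and -0.45 with the mean of a gene's probe sets, and -0.46 and -0.20 with dual-role helicases counted as nucleolar, where the other median at 48 h was 0.15. Apart from the shift of all probe sets given for a scaling, the cause of each change was not tested.

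With the replicate number as a block, 3 probe sets passed at 48 h and 1843 at 72 h, the nucleolar median at 72 h was -0.99 and the gap -0.78, and 10 helicases were called, among them Ddx56 (-1.52), Ddx17 (1.35) and Ddx5 (0.67). Deviations of same-numbered 48 h arrays correlated at 0.36 over 7453 probe sets, but with 2 pairs and no label tying the numbers to a day or mouse, the arrays share only a number.

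Quantile normalisation of log2 values, added after seeing the data, gave 832 probe sets and 7 helicases at 72 h.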
